A study of Homo sapiens with 6 samples.

Results

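The SLC16 family and its chaperone basigin were followed in HepG2, an established cell line from a human liver tumour, cultured for 24 h with vehicle or with glycine added at 10 mM. The group was made up by name of 8 genes out of 57500 counted: SLC16A6, SLC16A1, SLC16A3, SLC16A5, SLC16A9, SLC16A10, SLC16A13 and BSG. It was assembled around SLC16A6 because its level differed between these same libraries, so the contrast below is a description for these 8 genes and carries no test. RNA was sequenced from 3 vehicle and 3 glycine libraries. All 6 came from the same line in culture medium that itself contains glycine, so the comparison is one of more glycine with less, in a single tumour-derived line. The study's methods call its replicates biological, made on separate days, and the labels do not say which libraries share a day.

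SLC16 proteins are membrane transporters of small organic acids and related molecules. The best known of them move lactate, pyruvate and ketone bodies together with a proton, and they need a single-pass glycoprotein, basigin or a relative of it, to reach the cell surface. Other family members carry other cargo: aromatic amino acids, thyroid hormones, carnitine or creatine. SLC16A6, also called MCT7, has been described as an exporter of the ketone body beta-hydroxybutyrate from hepatocytes and as a transporter of taurine. The liver uses the family to take up lactate for glucose synthesis and to release ketone bodies during fasting.

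To show how far these genes differ from each other in the letters that reads are matched to, the coding stretch around the most conserved part of the family is given for SLC16A6 and for 5 relatives named below. It lies just ahead of the first membrane-spanning segment. Each window holds 66 bases of coding exon on GRCh38, read 5′ to 3′ along the gene's own strand from the GENCODE 29 transcript with the longest coding sequence, and the 18 capital letters encode the conserved signature, located by translating each coding sequence.
SLC16A6: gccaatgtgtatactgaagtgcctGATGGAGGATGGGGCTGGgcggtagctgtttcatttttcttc
SLC16A4: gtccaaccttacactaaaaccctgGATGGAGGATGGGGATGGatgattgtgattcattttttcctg
SLC16A1: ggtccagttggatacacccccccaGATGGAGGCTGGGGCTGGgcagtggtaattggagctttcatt
SLC16A3: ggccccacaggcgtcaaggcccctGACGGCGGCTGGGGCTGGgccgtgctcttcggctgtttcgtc
SLC16A10: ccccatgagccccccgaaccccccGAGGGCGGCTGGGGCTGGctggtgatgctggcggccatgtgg
SLC16A13: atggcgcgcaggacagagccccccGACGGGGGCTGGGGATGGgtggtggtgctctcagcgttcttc

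The SLC16A6 window is chr17:68278222-68278287 on the minus strand. The SLC16A4 window is chr1:110389237-110389302 (minus), that of SLC16A1 is chr1:112929225-112929290 (minus), that of SLC16A3 is chr17:82236033-82236098 (plus), that of SLC16A10 is chr6:111087924-111087989 (plus) and that of SLC16A13 is chr17:7036383-7036448 (plus). Set side by side without gaps, SLC16A4 had the same base as SLC16A6 at 40 of the 66 positions, SLC16A1 and SLC16A13 at 35, and SLC16A3 and SLC16A10 at 34. Within the 18 capital letters SLC16A4 and SLC16A1 matched SLC16A6 at 17 positions, SLC16A3 and SLC16A10 at 15 and SLC16A13 at 14. No run of 50 bases in a transcript of any of the 8 genes occurred in a transcript of another functional SLC16 gene. The exception among pseudogenes was SLC16A6P1, which held 8.42% of the 50-base runs of SLC16A6 and had 16 counts over the 6 libraries together. Outside the family, ENSG00000280299, whose counts are not given here, held 2.77% of the SLC16A6 runs, and ARSG, taken up below, held 2.37%.

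SLC16A6 (ENSG00000108932, chr17:68267026-68291267, minus strand) was the member with the most marked difference. It was counted 444, 475 and 531 times in the vehicle libraries and 1254, 2041 and 1526 times in the glycine libraries. As CPM, the counts set to a common library size after scaling by the trimmed mean of M values, these were 12.7, 13.6 and 14.8 CPM with vehicle and 39.3, 34.9 and 36.2 CPM with glycine. Every glycine library lay more than the whole vehicle range above the highest vehicle library. The vehicle mean of 13.7 ± 1.05 CPM and the glycine mean of 36.8 ± 2.27 CPM (each ± SD, n = 3, as for all means below) differed 2.69-fold. On the log2 scale glycine minus vehicle was 1.42 ± 0.080 (SE), with a 95% interval of 1.25 to 1.60. By this difference SLC16A6 ranked 36 among the 15492 genes that passed the filter on low counts, from the most higher to the most lower with glycine. Leaving out a library or changing the scaling, the filter or the model gave differences between 1.36 and 1.48.

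**Figure D1:**
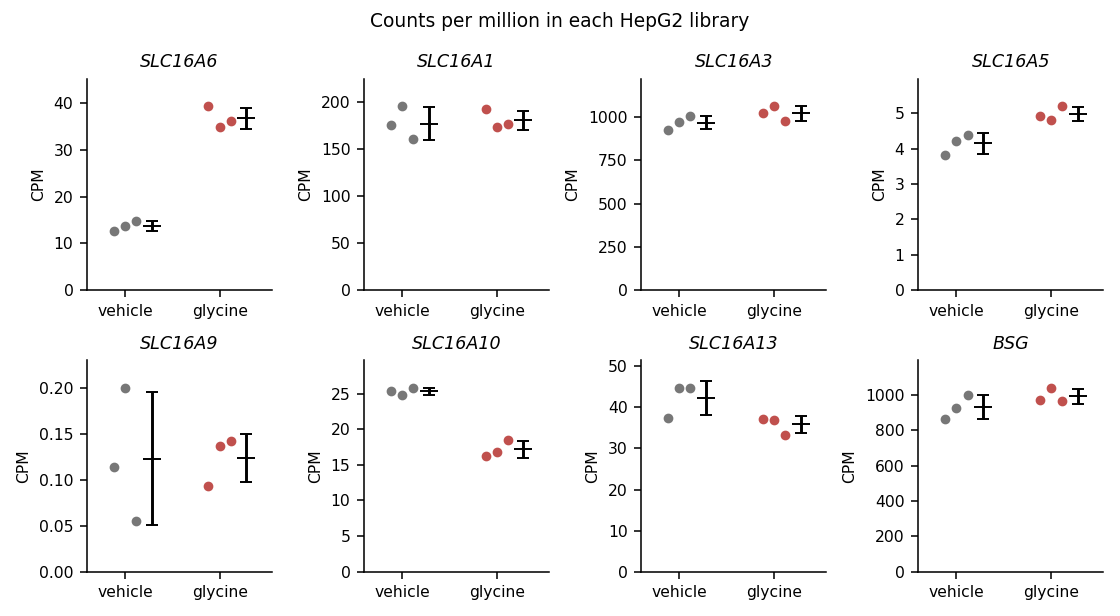
CPM on the vertical axis of each panel (starting at 0) for the 8 genes in the 3 vehicle (grey) and 3 glycine (red) libraries, with the group mean and SD beside the points. SLC16A6 sits between 12.7 and 14.8 CPM with vehicle and between 34.9 and 39.3 CPM with glycine, SLC16A10 is lower in all 3 glycine libraries, and the points of SLC16A1, SLC16A3, SLC16A9 and BSG overlap.

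A stretch of 144 bases of SLC16A6 exon, chr17:68273927-68274070 or 3.55% of its exon length, is also exon of ARSG, a lysosomal sulfatase gene on the opposite strand. The strand setting of the count is not given in the sources used here, so reads from the overlap cannot be told apart. ARSG rose from 9.0 ± 0.22 to 13.1 ± 0.49 CPM, by 0.54 ± 0.082 on the log2 scale (adjusted p = 0.000839 in the edgeR test over all genes). The part of the shared exon in the SLC16A6 counts was not tested. The other tested genes within 100 kb of SLC16A6 did not pass: AMZ2 had a log2 change of 0.11 (adjusted p = 0.321) and the non-coding ENSG00000274712 one of 0.23 (adjusted p = 0.162). In bulk RNA, a change in the share of cells with a transcript and a change in transcript per cell cannot be told apart.

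The 3 most abundant members are the lactate transporters SLC16A1 and SLC16A3 and the chaperone that carries both to the membrane. SLC16A1 (MCT1, the widespread lactate, pyruvate and ketone body transporter) held 176, 196 and 161 CPM with vehicle and 193, 174 and 177 CPM with glycine. The groups overlapped, at means of 177 ± 17.6 and 181 ± 10.2 CPM, and the log2 difference was 0.03 with a 95% interval of -0.14 to 0.19. SLC16A3 (MCT4, the main lactate exporter of glycolytic cells) held 927, 974 and 1004 CPM with vehicle and 1021, 1062 and 980 CPM with glycine. Its groups also overlapped, through the third glycine library, and the log2 difference was 0.08 with an interval of -0.08 to 0.23. BSG, basigin, held 864, 929 and 999 CPM with vehicle and 970, 1041 and 968 CPM with glycine, again with overlap. Its log2 difference was 0.09 with an interval of -0.07 to 0.26. Genes on the other strand share 3.3% of the exon length of SLC16A1 (SLC16A1-AS1), 5.4% of SLC16A3 (CSNK1D) and 3.7% of BSG (BSG-AS1). SLC16A1-AS1, CSNK1D and BSG-AS1 did not pass, with log2 changes of 0.24, 0.01 and 0.10 (adjusted p = 0.241, 0.918 and 0.689, edgeR).

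SLC16A10 (TAT1, a transporter of aromatic amino acids and thyroid hormones that works without a proton gradient) was the member that was lower with glycine by the widest margin. It was counted 889, 865 and 928 times with vehicle and 519, 984 and 781 times with glycine. Those counts were 25.4, 24.8 and 25.8 CPM with vehicle and 16.3, 16.8 and 18.5 CPM with glycine. The groups did not overlap: the mean was 25.3 ± 0.51 CPM with vehicle and 17.2 ± 1.17 CPM with glycine, a ratio of 0.679. The log2 difference was -0.56 ± 0.074, with a 95% interval of -0.72 to -0.40 and a range of -0.62 to -0.53 over the alternatives. Its exons share 1.58% of their length with MFSD4B-DT on the other strand, which had 0 counts in all 6 libraries.

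SLC16A13 (MCT13, a transporter described in liver whose gene lies in a type 2 diabetes risk region) held 37.4, 44.7 and 44.8 CPM with vehicle and 37.2, 37.0 and 33.4 CPM with glycine. The groups did not overlap, but the lowest vehicle library and the highest glycine library were nearly level. The means were 42.3 ± 4.22 and 35.9 ± 2.16 CPM and the log2 difference was -0.24 ± 0.081. SLC16A5 (MCT6, known for the transport of drugs such as bumetanide) held 3.82, 4.21 and 4.4 CPM with vehicle and 4.92, 4.82 and 5.19 CPM with glycine. Here the groups were also apart, in the other direction, with a log2 difference of 0.26 ± 0.113. SLC16A9 (a carnitine transporter) was counted 4, 7 and 2 times with vehicle and 3, 8 and 6 times with glycine. It had too few counts for the filter and was not fitted, and a difference in it was not detectable at this depth.

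Of the 8 members, 7 passed the filter on low counts. Under the threshold used for all genes, an adjusted p below 0.05, 1 member was past it as higher (SLC16A6) and 1 as lower (SLC16A10). Among all 15492 tested genes 13.3% were past it, 6.71% as higher and 6.54% as lower, and nothing is read from the members' count because the same contrast chose them. The 3 vehicle and 3 glycine libraries did not overlap for 4 of the 7 members, of which SLC16A6 and SLC16A5 were higher and SLC16A10 and SLC16A13 lower. Over all tested genes 31.6% did not overlap, 17.2% higher and 14.4% lower. The median log2 difference was 0.08 over the 7 members and 0.0035 over all tested genes.

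**Figure D2:**
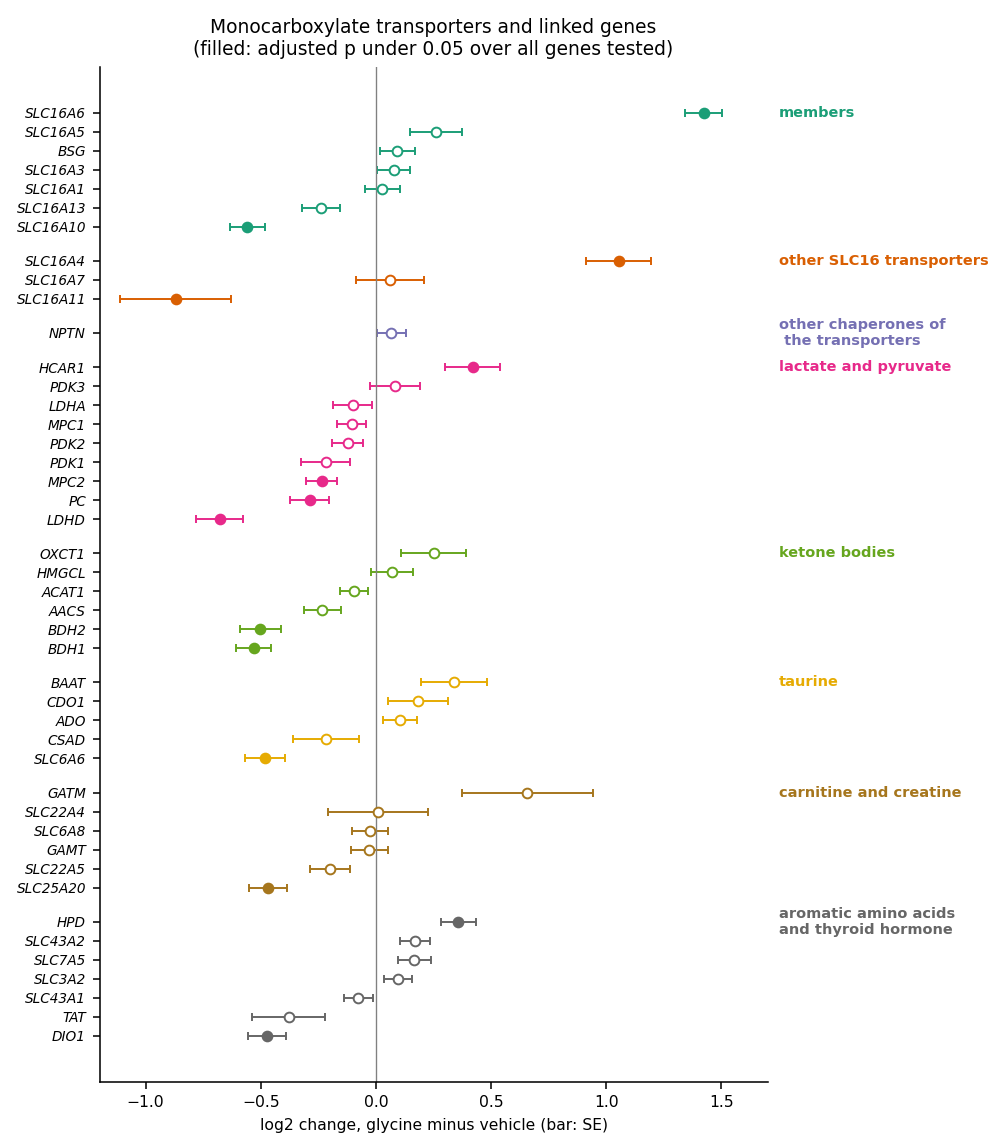
Log2 change, glycine minus vehicle (horizontal axis), with its SE for the 7 fitted members and 37 of the fitted linked genes, grouped by what they carry or convert, with filled points for genes past the threshold over all genes tested. SLC16A6 is at 1.42 and SLC16A4 at 1.05, SLC16A10 is at -0.56 and SLC16A11 at -0.87, and most other points lie within 0.5 of 0.

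Levels of the SLC16 genes and BSG were ranked after division by exon length, as CPM per kilobase of exon (RPKM). Exon length is that of all annotated exons of a gene merged, 8995 bases for SLC16A3 and 3830 for BSG, rather than of 1 transcript. The order, shares and ratios below depend on this length. With vehicle the order was BSG at 243 ± 17.6 RPKM, SLC16A3 at 108 ± 4.32, SLC16A1 at 33.4 ± 3.31, SLC16A13 at 20.3 ± 2.02, SLC16A6 at 3.37 ± 0.26, SLC16A10 at 2.25 ± 0.045 and SLC16A5 at 1.34 ± 0.094 RPKM. The libraries of each of these neighbours in the order were apart from those of the next. SLC16A9 stood far below them at 0.0279 ± 0.0165 RPKM. With glycine SLC16A6 kept its place but stood at 9.05 ± 0.56 RPKM, nearer to SLC16A13, then at 17.2 ± 1.04. SLC16A10 and SLC16A5, at 1.53 ± 0.10 and 1.61 ± 0.062 RPKM, no longer differed beyond their spread. In vehicle libraries 48.6% of tested genes had a lower mean RPKM than SLC16A6, and in glycine libraries 69.5%.

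As a share of the summed RPKM of the 14 SLC16 genes, SLC16A6 took 1.98 ± 0.11% with vehicle and 5.06 ± 0.31% with glycine. SLC16A3 took 63.4 ± 1.46% and 63.5 ± 1.30%, and SLC16A1 took 19.7 ± 1.86% and 19.0 ± 0.98%. The family sum itself was 163, 175 and 172 RPKM with vehicle and 182, 182 and 172 RPKM with glycine, with overlap between the groups. In RPKM, BSG exceeded the sum of its main clients SLC16A1 and SLC16A3 by a ratio of 1.72 ± 0.10 with vehicle and 1.76 ± 0.058 with glycine. That excess rests on the exon lengths: in CPM the vehicle means were 931 for BSG, 969 for SLC16A3 and 177 for SLC16A1. In RPKM, SLC16A6 stood at 0.102 ± 0.016 of SLC16A1 with vehicle and at 0.266 ± 0.0028 with glycine. The ratio of SLC16A6 to SLC16A10 was 1.38, 1.52 and 1.58 with vehicle and 6.69, 5.74 and 5.41 with glycine.

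**Figure D3:**
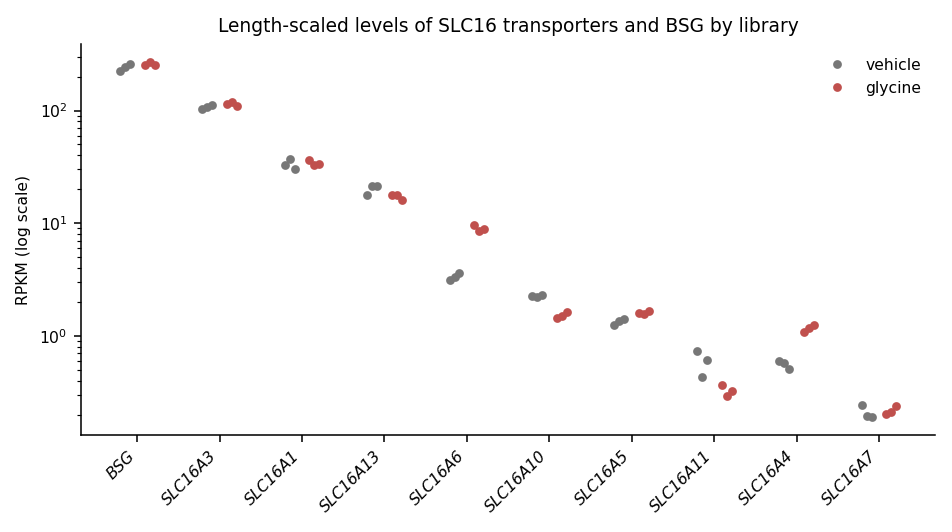
RPKM (vertical axis, log scale) of BSG and 9 fitted SLC16 genes in each vehicle (grey) and glycine (red) library, in the order of their vehicle means. BSG and SLC16A3 stand above 100 RPKM in all libraries, and SLC16A6 lies between 3.12 and 3.64 RPKM with vehicle and between 8.59 and 9.67 RPKM with glycine.

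A further 50 genes were listed by function: the remaining 7 genes of the SLC16 family, other chaperones, and transporters and enzymes of the substrates named above. Of these linked genes 39 passed the filter. Among them 3 rose, 10 fell and 26 did not pass the test, and their median log2 change was -0.08. Over all 15492 tested genes 6.71% rose and 6.54% fell. Nothing is read from these counts or those of the single lists below, because the lists were chosen with earlier results known. In the SLC16 list, SLC16A4 (MCT5, without an established substrate) had the second highest difference among the fitted genes of the family after SLC16A6. It held 1.91, 1.83 and 1.61 CPM with vehicle and 3.45, 3.73 and 3.93 CPM with glycine, and it rose by 1.05 ± 0.141 (adjusted p = 0.000293, edgeR). SLC16A4 shares 4.20% of its exon length with LAMTOR5-AS1 on the other strand. SLC16A11 (MCT11, a pyruvate transporter that neighbours SLC16A13 on chromosome 17) fell from 1.21 ± 0.30 to 0.671 ± 0.077 CPM, a log2 change of -0.87 ± 0.241 (adjusted p = 0.0307, edgeR). That call was lost with DESeq2 (adjusted p = 0.0752) and without any one of vehicle replicate 1 (0.129), vehicle replicate 3 (0.0686), glycine replicate 2 (0.123) or glycine replicate 3 (0.0768).

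The high-affinity lactate and pyruvate transporter SLC16A7 (MCT2) had a log2 change of 0.06 ± 0.146 (adjusted p = 0.832, edgeR). SLC16A8, SLC16A12 and SLC16A14 had 18, 15 and 8 counts over the 6 libraries and were not fitted. Among the other chaperones, NPTN (neuroplastin) held 75.7 ± 3.36 and 79.3 ± 3.52 CPM, with a log2 change of 0.07 (adjusted p = 0.545), and EMB (embigin) had 7 counts in all. The sodium-coupled lactate transporters SLC5A8 and SLC5A12 had 0 counts in every library. A count of 0 allows up to 3 counts, which were worth between 0.0510 and 0.0944 CPM in these libraries, and covers counting error only.

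Among 11 genes of lactate and pyruvate handling, 9 were fitted, of which 1 rose and 3 fell. LDHD, the mitochondrial dehydrogenase of D-lactate, fell from 22.8 ± 3.07 to 14.3 ± 1.27 CPM, by 0.68 ± 0.101 on the log2 scale (adjusted p = 0.000682, edgeR). MPC2, a subunit of the mitochondrial pyruvate carrier, had a log2 change of -0.24 (adjusted p = 0.0388) and PC, pyruvate carboxylase, one of -0.29 (adjusted p = 0.0417). HCAR1, a cell surface receptor of lactate, rose from 4.26 ± 0.43 to 5.67 ± 0.50 CPM, by 0.42 ± 0.120 (adjusted p = 0.0352). Several of these calls lay near the threshold and were lost in some of the alternatives. That of MPC2 was lost without vehicle replicate 2 (adjusted p = 0.0958), vehicle replicate 3 (0.0965), glycine replicate 1 (0.0938), glycine replicate 2 (0.0601) or glycine replicate 3 (0.129), and with the replicate number as a block (0.0575). That of PC was lost without vehicle replicate 2 (0.125), glycine replicate 2 (0.119) or glycine replicate 3 (0.130). That of HCAR1 was lost with DESeq2 (0.0655) and without vehicle replicate 2 (0.10), vehicle replicate 3 (0.0560), glycine replicate 2 (0.132) or glycine replicate 3 (0.109). LDHA, the main lactate dehydrogenase of these cells, held 1350 ± 129 and 1258 ± 63.8 CPM (adjusted p = 0.483), while LDHB had 12 counts in all. MPC2 shares 22.5% and PC 10.5% of exon length with a gene on the other strand.

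For ketone bodies, the cargo first described for SLC16A6, 6 of 7 genes were fitted and 2 fell. BDH1, the mitochondrial enzyme that interconverts acetoacetate and beta-hydroxybutyrate, fell from 47.6 ± 3.89 to 32.9 ± 2.0 CPM, by 0.53 ± 0.076 (adjusted p = 0.000517, edgeR). BDH2, a cytosolic dehydrogenase, fell from 12.1 ± 0.55 to 8.50 ± 0.45 CPM, by 0.50 ± 0.087 (adjusted p = 0.00211), and 11.7% of its exon length is shared with SLC9B2 on the same strand. For taurine, the other cargo described for SLC16A6, 5 of 6 genes were fitted and 1 fell: SLC6A6, the sodium-coupled taurine importer, was at 54.5 ± 5.76 CPM in vehicle and 39.0 ± 3.32 CPM in glycine libraries (log2 change -0.48 ± 0.086, adjusted p = 0.00251). The enzymes CDO1, CSAD, ADO and BAAT did not pass, with log2 changes between -0.22 and 0.34.

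All 6 genes of carnitine and creatine handling were fitted and 1 fell. That gene was SLC25A20, the mitochondrial carnitine-acylcarnitine carrier, which moved from 16.6 ± 1.32 to 11.997 ± 0.35 CPM (log2 change -0.47, adjusted p = 0.00254, edgeR). For the aromatic amino acids and thyroid hormones carried by SLC16A10, 8 of 9 genes were fitted, 1 rose and 2 fell. Of these DIO1, a deiodinase of thyroid hormone, fell from 21.3 ± 1.90 to 15.4 ± 0.067 CPM (log2 change -0.47, adjusted p = 0.00184). HPD, a later enzyme of tyrosine breakdown, rose from 274 ± 21.5 to 351 ± 23.8 CPM (log2 change 0.36, adjusted p = 0.00785). The plasma membrane amino acid transporters SLC7A5, SLC3A2, SLC43A1 and SLC43A2 did not pass, with log2 changes between -0.08 and 0.17.

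The libraries held between 31795489 and 58815986 counts. The 9 hepatocyte and HepG2 markers were all expressed, at a summed 29594 to 33653 CPM with vehicle and 25411 to 29108 CPM with glycine. SLC16A10, DIO1 and BDH1 were also lower with glycine, and the part of the marker level in their difference was not tested. Among the 9 markers, 2 fell in the edgeR test: TTR (log2 change -0.32, adjusted p = 0.00921) and APOA1 (-0.26, adjusted p = 0.0483). Over all tested genes 6.54% fell. ALB, AFP, SERPINA1, TF, FGB and HNF4A also had negative log2 changes but did not pass. ALB took up most of the difference in the sum, at 7688 and 5477 CPM (adjusted p = 0.0764), but its second vehicle library, at 5366 CPM, lay within the glycine range. The APOB means were level at 10752 CPM in both groups, but its vehicle libraries ran from 7405 to 13184 CPM. Of the other cell types, endothelial markers summed to 5.45 to 5.76 CPM with vehicle and 4.60 to 5.26 CPM with glycine. The stellate cell and fibroblast list, mostly PDGFRB, summed to 27.1 to 31.0 and 21.4 to 22.0 CPM. In that list PDGFRB fell (log2 change -0.66, adjusted p = 0.000137) while COL1A1 rose from 2.15 to 4.38 CPM (1.03, adjusted p = 0.000585). The leukocyte list, at 2127 to 2330 and 1697 to 1856 CPM, was nearly all LYZ, with CD3E at 0 counts and PTPRC at 0.0860 CPM at most. LYZ fell (log2 change -0.32, adjusted p = 0.0172), while CD14 rose from 2.74 to 5.39 CPM (log2 change 0.98, adjusted p = 0.00016). Among the endothelial markers VWF fell from 0.58 to 0.26 CPM (log2 change -1.18, adjusted p = 0.0239). The cholangiocyte list, at 297 to 347 and 288 to 307 CPM, was nearly all SLC4A2.

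The genes whose profile over the 6 libraries was most like that of SLC16A6 were chosen among 9110 tested genes that averaged 10 CPM or more. The measure was the root mean square difference between log2 CPM profiles, each taken relative to its own vehicle mean, and as it uses the same contrast it gives likeness and no test. In order they were ADH4, an alcohol dehydrogenase of liver (0.131), ESAM, an adhesion protein of cell junctions (0.168), AKAP12, a scaffold for protein kinase A (0.183), AQP3, a channel for water and glycerol (0.193), and ACTA1, skeletal muscle actin (0.231). ADH4 went from 14.3 ± 0.34 to 34.7 ± 2.15 CPM, and AKAP12 had vehicle and glycine means of 85.9 ± 12.3 and 222 ± 2.22 CPM. The floor of 10 CPM kept SLC16A4, among others, out of this search.

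**Figure D4:**
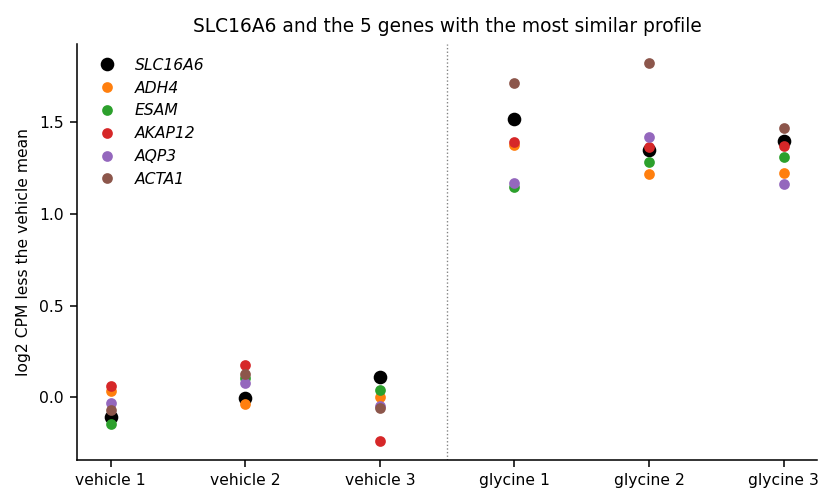
Log2 CPM less the gene's own vehicle mean (vertical axis) in each of the 6 libraries for SLC16A6 (black) and the 5 genes nearest to it in profile. SLC16A6 lies between -0.11 and 0.11 in the vehicle libraries and between 1.35 and 1.52 in the glycine libraries, and ACTA1 lies above it in every glycine library.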

How the data were processed

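RNA of HepG2 cells was sequenced from 3 vehicle and 3 glycine libraries, grouped by their labels. For each library the authors deposited 1 table of raw read counts by gene, as whole numbers without normalization. The submitters' processing notes name Trimmomatic 0.36, STAR 2.5.2b, featureCounts of Subread 1.5.2 and GRCh38, and the annotation release, strand and multi-mapping settings are not given in the sources used here. Of 57500 genes, 56898 were in GENCODE 29 and 54773 had the same span there, as had all 8 members. Symbols came from a separate list of gene names and, where that had none, from GENCODE 29.

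Counts were tested by edgeR 4.0.16 (R 4.3.3) with a two-sided quasi-likelihood F test and the group as only term, after its expression filter (minimum count 10, minimum total 15) and scaling by the trimmed mean of M values. P-values were adjusted by Benjamini-Hochberg over 15492 genes, with a threshold of 0.05. A standard error is the log2 change divided by the square root of F, and intervals use the t distribution. The members and lists were chosen with earlier results of these data known. Named were all members, linked genes past the threshold, all SLC16 and chaperone genes, tested genes that overlap a member or lie within 100 kb of SLC16A6, and the 5 most similar profiles, and a few linked genes not past it were named after their values were seen. Some linked genes that are in the counts are not reported here. The fit was tested on simulated counts. Alternatives were other scalings and filters, DESeq2 1.42.0, limma-voom (limma 3.58.1), a block for the replicate number and removal of each library in turn. Replicates were not duplicates (chi-square per degree of freedom 7.59 to 29.3).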

Additional observations from a re-analysis of the deposited data

How the results depend on the processing

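The call counts of the members changed little: 1 member was past the threshold as higher under all 14 alternatives, and 1 as lower except that SLC16A13 joined it, giving 2, with no filter on low counts and without vehicle replicate 1. Leaving out 1 library at a time therefore gave 1 to 2 members called lower. Over all genes, 1040 were called higher and 1013 lower. Leaving out 1 library gave between 587 and 926 higher and between 655 and 1010 lower, each from fewer samples. The count of higher genes fell by more than 1.5 times without vehicle replicate 1 (590), glycine replicate 1 (594), glycine replicate 2 (617) or glycine replicate 3 (587), and that of lower genes without glycine replicate 2 (655). The DESeq2 Wald test called 859 higher and 1009 lower. Among 2 to 3 linked genes called higher and 7 to 12 called lower, no call changed direction.

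The replicate numbers did not pair the libraries: same-numbered vehicle and glycine libraries had correlations of their deviations of -0.058, -0.027 and -0.0026 across genes, against -0.198 to 0.214 for the others. The fit with the replicate number as a block called 866 genes higher and 918 lower, kept 1 member higher and 1 lower, and left the linked genes at 3 higher and 9 lower, with MPC2 at an adjusted p of 0.0575. Library depth was 31795489 counts or more, and low counts kept genes such as SLC16A9 out of the fit. Fitted genes with few counts were measured less precisely. SLC16A11, with 24 to 52 counts per library, had an SE of 0.241, against 0.072 for SLC16A3.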
